A study of Mus musculus with 4 samples.

Results

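Claudins and tight junction genes of the embryonic mouse gonad were followed through 10 genes chosen by symbol, all of which were among the 40999 features in the files. They are the claudin genes Cldn1, Cldn3, Cldn4, Cldn5, Cldn6, Cldn7, Cldn10 and Cldn11, the occludin gene Ocln and the scaffold gene Tjp1. The tissue came from wild-type C57BL/6J embryos on 4 successive days, E11.5 to E14.5, with XX and XY gonads mixed in 1 pool per day and each pool read as 1 library. The genital ridge of E11.5 still carried its mesonephros, whereas the later gonads were freed from it, so time and the presence of mesonephros cannot be told apart between E11.5 and E12.5. Male and female gonads were not separated, and no library has a replicate. In such bulk samples, fewer cells of a type and less RNA per cell cannot be told apart.

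Tight junctions seal the space between neighbouring epithelial or endothelial cells. Claudins are membrane proteins whose strands decide which ions and molecules pass, occludin is a further strand protein, and ZO-1, the product of Tjp1, ties the strands to the actin cytoskeleton. Cell types use different claudins. In the gonad, claudin-11 is best known from Sertoli cells, where it later forms the blood-testis barrier, claudin-5 marks vessels, and claudins 3, 4, 6 and 7 belong to many embryonic epithelia, the nephric ducts and tubules among them.

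Coordinates are those of mm10, and GENCODE lists all 10 genes as protein coding. Cldn11 is at chr3:31149920-31164326 on the plus strand with 3 exons. Cldn3 (chr5:134986214-134987476, plus strand) and Cldn4 (chr5:134945123-134946934, minus strand) have 1 exon each and lie 39279 bases apart. Exons of Wbscr25 on the opposite strand overlap 44 bases of Cldn3, and no other gene listed in the files overlaps the exons of a member. Cldn6 (chr17:23679348-23682446, plus strand) ends 137 bases from Cldn9, a claudin gene outside the 10. Cldn5 (chr16:18776847-18778262) and Cldn1 (chr16:26356645-26371839) share a chromosome. Cldn7 lies at chr11:69964779-69967886, Cldn10 at chr14:118787871-118874525, Ocln at chr13:100496504-100553692 and Tjp1 at chr7:65296165-65527807. Tjp1 has the longest exon length of the 10, with 31 exons and 7553 bases, and Cldn3 the shortest with 1263.

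The 250 bases before the start site are shown for Cldn11, up-regulated at E12.5, and for the neighbours Cldn4 and Cldn3, down-regulated at E12.5. The sequences are from RefSeq (GRCm38.p6), 5′ to 3′ on the strand of the gene. Capitals mark matches to CAGGTG, an E-box of the type bound by Snail and ZEB factors, and to GGGCGG, the GC box, each read on both strands (CACCTG and CCGCCC on the other strand).
Cldn11 (chr3:31149670-31149919, plus strand): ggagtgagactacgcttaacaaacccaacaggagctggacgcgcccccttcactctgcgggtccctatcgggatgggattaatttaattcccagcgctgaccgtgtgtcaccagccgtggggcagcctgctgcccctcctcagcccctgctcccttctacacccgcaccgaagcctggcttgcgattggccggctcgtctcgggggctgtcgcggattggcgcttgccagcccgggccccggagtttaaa
Cldn4 (chr5:134946935-134947184, minus strand): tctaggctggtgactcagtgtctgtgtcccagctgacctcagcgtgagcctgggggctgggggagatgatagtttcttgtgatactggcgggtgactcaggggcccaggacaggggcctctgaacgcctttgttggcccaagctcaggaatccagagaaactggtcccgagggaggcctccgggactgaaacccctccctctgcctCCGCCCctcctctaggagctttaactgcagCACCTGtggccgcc
Cldn3 (chr5:134985964-134986213, plus strand): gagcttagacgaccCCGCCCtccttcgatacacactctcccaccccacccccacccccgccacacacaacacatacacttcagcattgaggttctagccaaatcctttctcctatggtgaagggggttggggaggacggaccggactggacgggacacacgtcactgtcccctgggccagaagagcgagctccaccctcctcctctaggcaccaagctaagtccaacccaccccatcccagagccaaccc

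The Cldn11 window held neither motif. The Cldn4 window held the E-box 14 bases and the GC box 44 bases before the start. The Cldn3 window held a GC box 236 bases before the start and no E-box. RefSeq windows were found for all 10 genes, with 13 start sites. Windows of Cldn4 and Cldn6 and the second start site of Cldn7 and Ocln held CAGGTG, and it was present in 17.2% of 32851 windows of all genes. Those 4 genes were among the 5 down-regulated at E12.5. A match is only a match of letters, and a part of the motif in these changes was not tested. Genes with several start sites had more windows, and the matching windows of Cldn6, Cldn7 and Ocln overlap annotated transcribed sequence. GGGCGG was found in a window of every gene of the 10 except Cldn11, and in 32.7% of all windows. The genes with it included Cldn1, Cldn5 and Tjp1, which changed less than 2-fold at E12.5. Matches to TATAAA and to AACCGGTT, the grainyhead-like motif, were searched as well and not found in the windows of the 10 genes, against 12.4% and 0.116% of all windows.

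The libraries held 25593453 to 31752562 deduplicated counts. Rn18s-rs5, the 18S rRNA gene, took 40.7% of the counts at E14.5 and between 1.03% and 9.06% of the others. Deposited TPM of most genes were lower at E14.5, and changes are given after TMM scaling, which sets the typical gene at no change. Scaling E14.5 versus E13.5 by total counts moved the median gene by -1.08 on the log2 scale, and by deposited TPM by -1.64. For E14.5 versus E12.5 the shifts were -1.05 and -1.50, and for E12.5 versus E11.5 they were 0.16 and 0.28. The deposited TPM shifted E13.5 versus E12.5 by 0.13. Levels below are RPKM computed with TMM-scaled library sizes, corrected for exon length, so they can be compared between genes. A gene is called up-regulated or down-regulated when it differed at least 2-fold between 2 libraries. With 1 library per day, each fold change compares libraries and has no replicate check, and every interval is a 95% interval for counting error only. Wt1, listed here as a surface epithelium marker, had from 3371 to 10724 counts per library, the most at E11.5, where the mesonephros was included. Alone it cannot tell gonadal from mesonephric cells in that library.

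**Figure D1:**
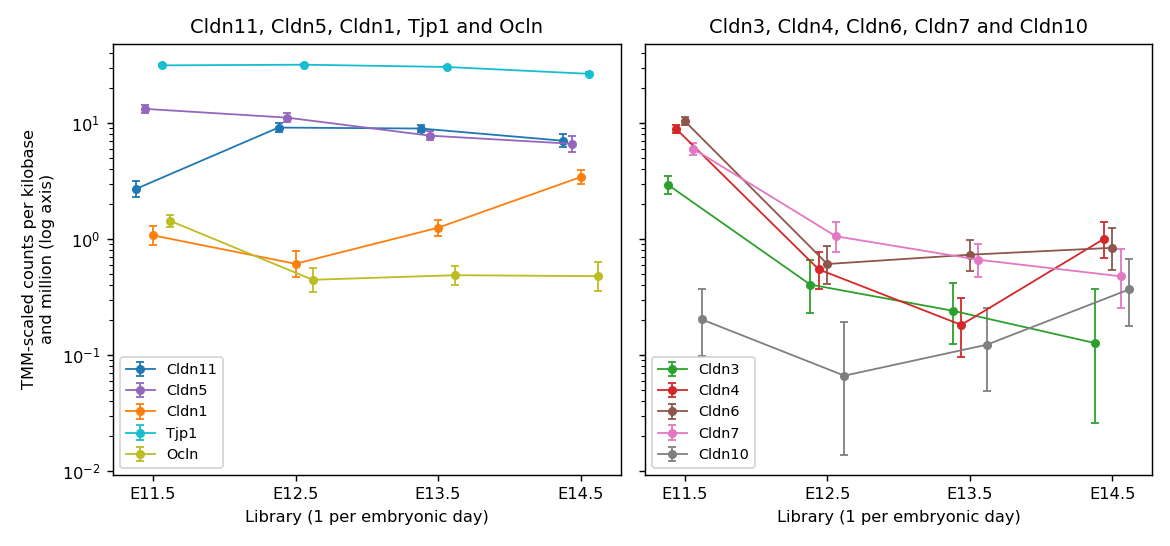
Level of the 10 genes in each library, as RPKM with TMM-scaled library sizes on a log axis, with bars for the exact Poisson 95% interval of the count. Tjp1 stayed between 26.5 and 31.7, Cldn11 went from 2.70 to 9.11 at E12.5, and Cldn3, Cldn4, Cldn6 and Cldn7 dropped after E11.5.

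Between E11.5 and E12.5 the make-up of the 8 claudin transcripts among the 10 genes changed. Cldn11 was up-regulated, and Cldn3, Cldn4, Cldn6, Cldn7 and Ocln were down-regulated. Of the 9 genes that passed the filter on low counts, 1 was thus higher and 5 were lower. Of 19215 genes tested in this comparison, 8.64% were at least 2-fold higher and 9.11% at least 2-fold lower, which is 1661 and 1751 genes, against 2322 and 1273 by the deposited TPM. Cldn1, Cldn5 and Tjp1 changed less than 2-fold, and Cldn10 had too few counts to pass. The median log2 fold change of the 9 was -1.68, against 0.00 for all genes tested.

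Cldn11 had 173, 535, 662 and 247 counts in the order of the days. Its levels in that order were 2.70, 9.11, 8.94 and 7.01, so E11.5 was the low library and the other levels were close together. The log2 fold change at E12.5 was 1.76 (1.51 to 2.01), a 3.38-fold rise, and 782 of the 19215 genes rose as much or more. In the next steps the log2 fold change was -0.03 (-0.20 to 0.14) at E13.5 and -0.33 (-0.55 to -0.12) at E14.5. The deposited TPM of Cldn11 were 4.16, 17.1, 18.4 and 4.70, and the last comes from the library with 40.7% Rn18s-rs5.

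Of 12 Sertoli cell markers, 8 were up-regulated in the same step as Cldn11 and 0 down-regulated, with a median log2 fold change of 3.72. Their summed level over the days was 72.9, 515, 474 and 483. Amh, the hormone that removes the Mullerian duct, went from 45 to 8900 counts, and Gata4 from 4026 to 10077. Sox9, the testis-determining transcription factor, had 2763 and 4282 counts and a log2 fold change of 0.76, and Fgf9 (0.74), Nr0b1 (0.37) and Sox10 (0.98) also stayed under 2-fold. The level of Cldn11 equalled 3.70%, 1.77%, 1.89% and 1.45% of the Sertoli sum. At E11.5 that sum was mostly Gata4, with a level of 34.6, and Sox9, with 19.5, against 0.674 for Amh, and Gata4 is used by gonadal somatic cells in general. The 8 pregranulosa cell markers also had 5 up-regulated genes at E12.5, and the 10 germ cell markers 8, and the part of each cell type in the Cldn11 change was not tested. Of all genes tested, 8.64% were at least 2-fold higher in this step and 9.11% lower. Among the Sertoli markers, Etd had 3 counts at E11.5 and passed the filter only through E12.5, the library where it was higher. The genes whose 3 day-to-day changes lay closest to those of Cldn11 were Proser2, with a root mean square difference of 0.049 on the log2 scale over the 4 libraries, Nr5a2 (0.082), a nuclear receptor, and Etnk2 (0.11), an ethanolamine kinase. The search covered 12435 genes with at least 200 counts in a library.

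Cldn6 and Cldn4 had the largest fold changes of the 10 genes at E12.5. Cldn6, a claudin of embryonic epithelia, had 540, 29, 44 and 24 counts in the order of the days. Its levels were 10.4, 0.607, 0.730 and 0.838, so the E11.5 library stood apart from the other 3. The log2 fold change at E12.5 was -4.09 (-4.68 to -3.55), which is 17.0-fold lower, and 93 of the tested genes had a fold change that low or lower. At E13.5 it was 0.26 (-0.44 to 0.99) and at E14.5 0.21 (-0.57 to 0.96), and both intervals include no change. L1cam (0.22), Nsg2 (0.28) and Dcx (0.29), which are known from neurons, had the closest day-to-day changes by root mean square difference.

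Cldn4, an epithelial claudin often found with Cldn3, had 550, 31, 13 and 34 counts. Its levels were 8.86, 0.546, 0.181 and 0.997, so E11.5 was high, E13.5 was the lowest and E14.5 lay above E12.5. The fold change at E12.5 was -4.02 on the log2 scale (-4.59 to -3.50), or 16.2-fold lower. Cldn4 was the gene among the 10 with 3 called day-to-day changes, since it was down-regulated again at E13.5 with -1.58 (-2.65 to -0.62) and up-regulated at E14.5 with 2.46 (1.52 to 3.52). By the deposited TPM the E14.5 change was 0.84 and under 2-fold. The E13.5 and E14.5 changes rest on at most 34 counts in each library.

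Cldn7, which like Cldn4 is placed in epithelia of kidney and gut, had 297, 48, 38 and 13 counts and levels of 5.97, 1.05, 0.661 and 0.476. Its log2 fold change at E12.5 was -2.50 (-2.97 to -2.06), and it lay at -0.67 (-1.33 to -0.03) at E13.5 and -0.46 (-1.49 to 0.48) at E14.5. Each day was lower than the one before, but the neighbouring values after E12.5 were less than 2-fold apart. From E12.5 to E14.5 the change reached -1.13 (-2.14 to -0.23). Foxc1 (0.031), a forkhead transcription factor of mesenchyme and kidney, Gria2 (0.11) and Mcoln3 (0.13) had the closest course.

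Cldn3 had 127, 16, 12 and 3 counts, with levels of 2.94, 0.404, 0.240 and 0.126. The fold change at E12.5 was -2.85 (-3.71 to -2.11) on the log2 scale, or 7.22-fold lower. The 3 counts at E14.5 equal the limit that a count of 0 allows, and the later values of -0.75 (-1.96 to 0.42) and -0.89 (-3.38 to 0.98) have wide intervals that include no change. Between E12.5 and E14.5 Cldn3 was called lower, at -1.64, yet the interval from -4.09 to 0.14 includes no change. For this comparison Cldn3 passed the filter only through E12.5, the library where it was higher.

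Ocln had 267, 76, 105 and 49 counts. Its levels were 1.43, 0.444, 0.486 and 0.477, with E11.5 high and the other days alike. The log2 fold change at E12.5 was -1.68 (-2.07 to -1.31), or 3.21-fold lower, and the next steps gave 0.13 (-0.31 to 0.57) and -0.01 (-0.53 to 0.49). Skida1 (0.080), Foxp1 (0.080) and Rdh10 (0.088), which makes retinaldehyde, followed the closest course.

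**Figure D2:**
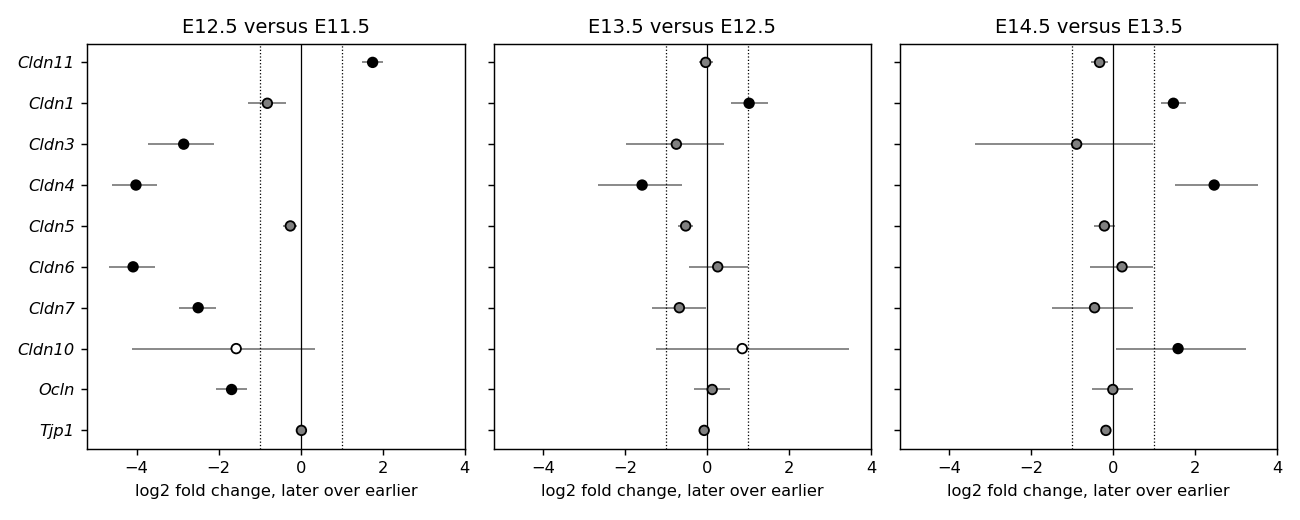
Log2 fold change of each gene in the 3 day-to-day comparisons, with the exact 95% counting interval as a line. Black points passed 2-fold (dotted lines at 1 and -1), grey points did not, and white points had too few counts to be tested. At E12.5 Cldn11 is on the right at 1.76 and 5 genes are on the left, down to -4.09.

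Most nephric epithelium markers were lower in the same step. Of 12, 9 were down-regulated at E12.5 and 0 up-regulated, with a median log2 fold change of -2.85, and their summed level was 87.7, 40.5, 38.2 and 30.6 over the days. Of all genes tested, 9.11% were down-regulated in this step and 8.64% up-regulated. The sum was led by Emx2, which gonadal epithelium also uses and which had 3045 counts at E11.5 and 2773 at E12.5, with a log2 fold change of -0.01. Gata3 went from 1078 to 84 counts, Calb1 from 1013 to 125 and Ret from 914 to 146. Apart from Emx2, the markers under 2-fold were Pax8, at -0.82 (-1.03 to -0.61), and Lhx1, which had 209 and 299 counts and a log2 fold change of 0.64 (0.38 to 0.91). Pax2, a transcription factor of the nephric duct, had 1531 counts at E11.5, 60 at E12.5 and 36 at E14.5, and no marker was at 0 in any library. Mesonephros was taken at E11.5 only, and the part of its removal in the change of the claudins was not tested.

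The 20 simple epithelium adhesion genes did not move as a block, with 3 up-regulated, 6 down-regulated and a median of -0.09. The shares of all genes tested in these directions were 8.64% and 9.11%. Cdh1, the E-cadherin gene, had a log2 fold change of -0.09 from 718 to 616 counts, Epcam 0.07 from 729 to 702 and Jup, the plakoglobin gene, 0.49 from 2553 to 3287. Dsp, the desmoplakin gene, was up-regulated from 1481 to 3404 counts, and Spint2 from 862 to 1651. The 6 down-regulated genes were Prom1, from 1192 to 253 counts and at -2.11, Grhl2 at -3.87, Rab25 at -3.44, Pkp3 at -2.84, Spint1 at -2.42 and Ap1m2 at -1.38. Rab25, from 25 to 2 counts, and Pkp3, from 32 to 4, passed the filter only through E11.5, the library where they were higher. The 8 surface epithelium markers gave 0 up-regulated and 1 down-regulated gene and a median of -0.22, with Wt1 at -0.16 and Bnc1 at -0.29. The down-regulated gene, Msln, had 14 and 2 counts and passed the filter only through E11.5, where it was higher.

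**Figure D3:**
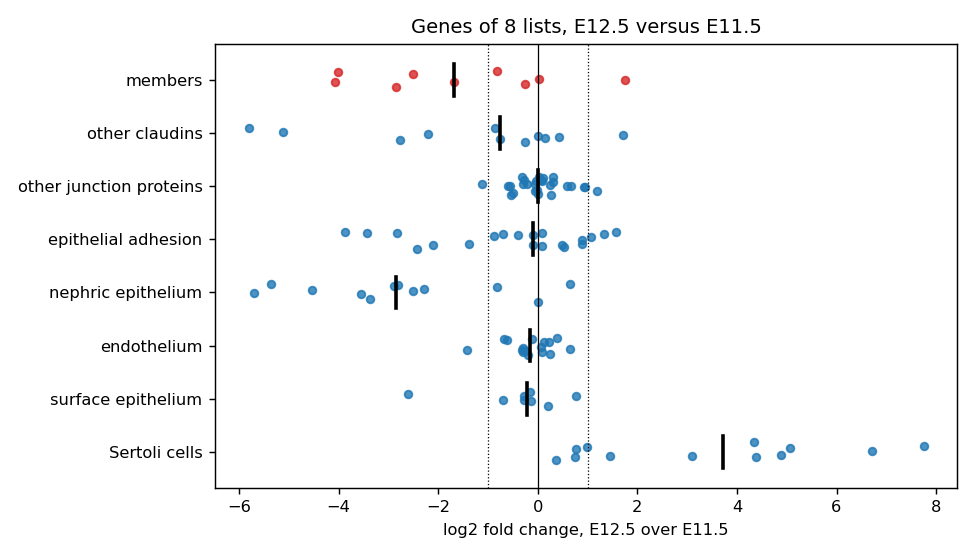
Log2 fold change between E12.5 and E11.5 for the tested genes of 8 lists, 1 point per gene with scattered heights, the black bar being the median of each list. The median of the members is -1.68, that of the nephric epithelium markers -2.85 and that of the Sertoli cell markers 3.72.

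Cldn5, the main claudin of endothelium, had 641, 493, 435 and 176 counts and levels of 13.2, 11.1, 7.77 and 6.61. No day-to-day change reached 2-fold. They were -0.25 (-0.42 to -0.08), -0.52 (-0.71 to -0.33) and -0.22 (-0.48 to 0.04) on the log2 scale, and from E12.5 to E14.5 the value was -0.74 (-0.99 to -0.49). The first step was -0.09 by total counts and 0.03 by the deposited TPM, so its direction depends on the scaling. The 16 endothelial markers had medians of -0.16, -0.40 and -0.04 in the same steps, with 1 down-regulated gene in the first, Plvap, a protein of vessel fenestrae, and none called later. Most genes tested were not called either. The shares higher and lower were 8.64% and 9.11% at E12.5, 3.28% and 1.98% at E13.5, and 6.44% and 2.51% at E14.5. The summed level of the endothelial markers was 211, 179, 140 and 137. Cdh5, the VE-cadherin gene, had 3618, 3846, 3597 and 1747 counts, and none of its fold changes after TMM scaling reached 2-fold. Cldn5 equalled 6.27%, 6.22%, 5.54% and 4.84% of that sum. Erg, an endothelial transcription factor of this marker list, was the third closest gene to Cldn5 (0.045), after Gdpd5 (0.026) and Cd109 (0.037).

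Tjp1 had 8107, 7519, 9069 and 3764 counts. Its level was the highest of the 10 in every library, at 31.3, 31.7, 30.4 and 26.5. The day-to-day values were 0.02 (-0.03 to 0.06), -0.07 (-0.11 to -0.02) and -0.18 (-0.23 to -0.12), and from E12.5 to E14.5 -0.25 (-0.31 to -0.19). It thus differed by at most 1.20-fold between any of the libraries after TMM scaling. The deposited TPM were 48.3, 59.7, 62.5 and 17.7, and the last comes from the library rich in Rn18s-rs5. Dnajc8 (0.006), Rnf4 (0.009) and Bclaf1 (0.011), all widely used genes, lay closest to it.

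Cldn1, known from the epidermal barrier, had its highest level in the last library. It had 119, 62, 160 and 208 counts and levels of 1.07, 0.610, 1.25 and 3.41, so E12.5 was the lowest day and E14.5 the highest. The first step was -0.81 (-1.28 to -0.36) and did not reach 2-fold. Cldn1 was then up-regulated in both later steps, at 1.03 (0.60 to 1.48) and 1.47 (1.16 to 1.77), and from E12.5 to E14.5 it was 5.62-fold higher (log2 2.49, 2.08 to 2.93). The genes closest to it were Mfap4 (0.28), a microfibril protein, Adcy2 (0.30), an adenylate cyclase, and Col1a1 (0.32), the main fibrillar collagen. Cldn1 rose in raw counts at E14.5 too, but by the deposited TPM the last step was -0.17, from 2.57 to 2.28, so its direction there depends on the scaling. From E12.5 to E14.5 the log2 value was 1.44 by total counts and 0.99 by the deposited TPM, the latter just under 2-fold.

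Cldn10, an ion-selective claudin of kidney tubules, was at the edge of detection, with 10, 3, 7 and 10 counts and levels of 0.202, 0.066, 0.122 and 0.368. It passed the filter only for E14.5 versus E13.5, where it was called at 1.58 (0.06 to 3.23). This call rests on 7 and 10 counts, and the gene passed the filter only through E14.5, the library where it was higher. By the deposited TPM the change was -0.03.

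At E13.5 Cldn1 was the up-regulated gene and Cldn4 the down-regulated one among 9 tested, while 3.28% and 1.98% of 19152 genes were at least 2-fold higher and lower, or 629 and 380, against 846 and 280 by the deposited TPM. At E14.5 versus E13.5, Cldn1, Cldn4 and Cldn10 were up-regulated and 0 of the 10 down-regulated, while 6.44% and 2.51% of 18992 genes passed in these directions, or 1223 and 477, against 322 and 11610 scaled by total counts and 161 and 16972 by the deposited TPM. Cldn10, with 7 and 10 counts, passed the filter only through E14.5, the library where it was higher. With at least 10 counts in both libraries, 2 members were called. Scaled by total counts, 1 member was up-regulated, Cldn4, and 6 were down-regulated. By the deposited TPM 0 were up-regulated and 7 down-regulated. Among the gonads free of mesonephros, E14.5 versus E12.5, Cldn1 was up-regulated and Cldn3 and Cldn7 down-regulated of 9 tested, against 8.44% and 3.33% of 18704 genes, or 1579 and 623. Cldn3, with 16 and 3 counts, passed the filter only through E12.5, the library where it was higher, and its interval included no change. Total counts gave 467 and 10284 genes and the deposited TPM 288 and 15453. For the members, total counts gave 1 up-regulated and 5 down-regulated, and the deposited TPM 0 and 7. These comparisons share libraries, so their values are not independent of each other.

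The rise of Cldn4 at E14.5, which was 1.39 on the log2 scale by total counts and 0.84 by the deposited TPM, was not shared by most epithelial genes. Of the adhesion list 2 of 18 tested genes were up-regulated, Grhl2 and Spint1, with a median log2 fold change of -0.16, while 6.44% of all genes were up-regulated in this step. Grhl2, a grainyhead-like transcription factor of epithelia, had 241, 15, 15 and 31 counts, and its last step was 2.12 (1.20 to 3.13). Spint1, a membrane inhibitor of serine proteases, had 170, 29, 23 and 72 counts and a last step of 2.73 (2.04 to 3.48). Of the nephric list 2 of 10 tested genes were up-regulated, and its median was -0.16 as well. Among the up-regulated, Cdh16, the kidney cadherin gene, had 700, 91, 29 and 67 counts with 2.29 (1.65 to 2.98). The raw counts of Cldn4, Grhl2, Spint1 and Cdh16 also rose. By the deposited TPM, Grhl2 (0.0977 and 0.138) and Cdh16 (0.455 and 0.719) differed less than 2-fold. Other nephric markers did not pass 2-fold in this step. Gata3, with 166 and 46 counts, had a log2 fold change of -0.76 (-1.27 to -0.28), Wfdc2 -0.70, Calb1 -0.39, Pax2 0.07 and Lhx1 0.96. The genes closest to Cldn4 over all steps were Grb7 (0.65), Pkhd1 (0.71), the polycystic kidney gene fibrocystin, and Ntrk2 (0.73). Whether remaining nephric tissue had a part in these values was not tested.

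**Figure D4:**
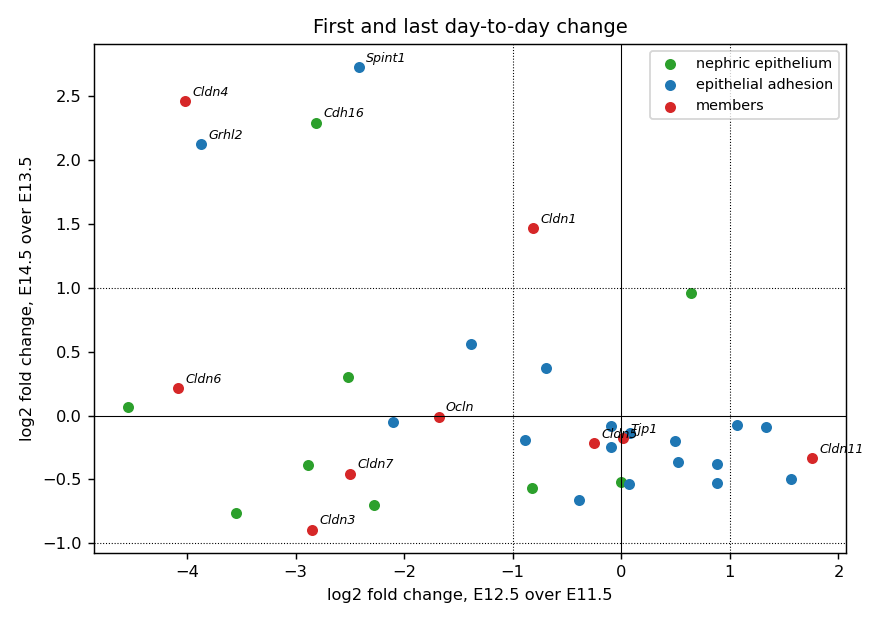
Log2 fold change at E14.5 over E13.5 (vertical) against E12.5 over E11.5 (horizontal) for the members (red), simple epithelium adhesion genes (blue) and the nephric epithelium markers reported here (green), tested in both, with dotted lines at 2-fold. Cldn4, Grhl2, Spint1 and Cdh16 lie at the upper left, and Cldn11 lies at the lower right with 1.76 and -0.33.

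Over the 8 claudins among the 10 genes, the summed level was 45.3, 23.5, 19.9 and 19.8 over the days. Over 30 listed claudin family genes, which include Cldn25 and Cldn12, it was 81.8, 57.3, 53.2 and 53.1. Cldn3, Cldn4, Cldn6 and Cldn7 together made up 62.1% of the sum of the 8 at E11.5 and 11.1%, 9.12% and 12.3% later. These 4 are the claudins of the 8 that were down-regulated at E12.5, so their smaller share follows from that choice. Cldn11 held 5.96%, 38.8%, 44.9% and 35.4%. Cldn5 held 29.2%, 47.2%, 39.0% and 33.3%. Cldn1 held 2.37%, 2.59%, 6.27% and 17.2%. Shares of 1 sum depend on each other, and the share of Cldn5 was larger at E12.5 although its level was 13.2 at E11.5 and 11.1 at E12.5.

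**Figure D5:**
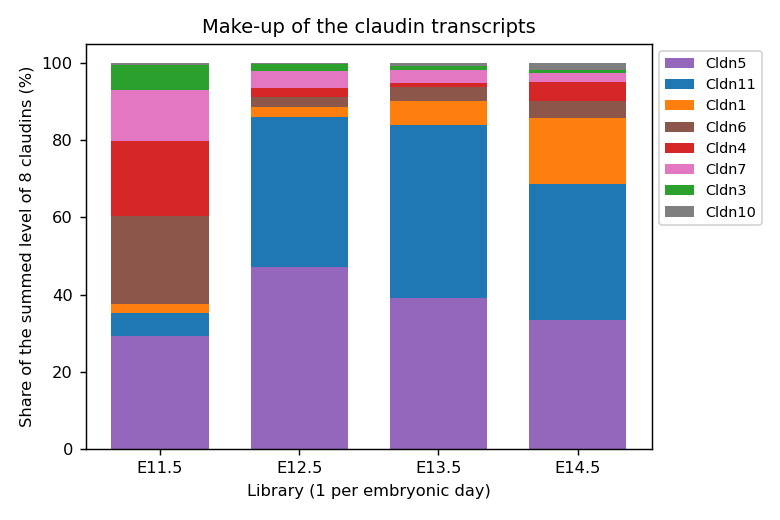
Share of each claudin in the summed level of 8 claudins, in percent, with 1 bar per library. Cldn3, Cldn4, Cldn6 and Cldn7 fill 62.1% of the bar at E11.5, and Cldn11 and Cldn5 fill most of the later bars.

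In the order of levels at E11.5, Tjp1 was followed by Cldn5, Cldn6, Cldn4, Cldn7, Cldn3, Cldn11, Ocln, Cldn1 and Cldn10. The counting intervals overlapped for the neighbours Cldn6 and Cldn4, Cldn3 and Cldn11, and Ocln and Cldn1. At E12.5 Tjp1, Cldn5 and Cldn11 led with intervals that did not overlap, and the genes from Cldn7 down to Cldn3 could not be told from their neighbours. At E13.5 and E14.5 Cldn11 came second, and its interval overlapped that of Cldn5 on both days. Cldn1 was the fourth gene on both days, clear of its neighbours. Levels of the remaining genes on these days were at most 0.997, and the intervals of neighbours overlapped.

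Among 22 other claudin genes, 11 passed the filter at E12.5 versus E11.5, with 1 up-regulated and 4 down-regulated. Of all 19215 genes tested, 8.64% and 9.11% passed in these directions. Of the 4 down-regulated genes, only Cldn19 also had at least 10 counts at E12.5. The others passed the filter only through E11.5, the library where they were higher. Cldn8, a claudin of the distal nephron and collecting duct, went from 374 counts to 6 and then to 0 and 0, with a log2 fold change of -5.81 (-7.29 to -4.70) in the first step. Cldn9, the neighbour of Cldn6, went from 80 counts to 2, 1 and 1, with -5.11 (-8.26 to -3.29), a ratio that rests on 2 counts at E12.5, below the 3 counts that a count of 0 allows. Cldn19 went from 51 to 10, 6 and 7 counts, with -2.21 (-3.37 to -1.23). Cldn26, which RefSeq lists as a synonym of Tmem114, was up-regulated from 57 to 171 counts, with 1.71 (1.27 to 2.17), and then had 216 and 95. Cldn25, a synonym of Cldnd1, and Cldn12 had levels of 18.3 to 20.2 and 5.90 to 6.58 with 0 calls. Of the 30 claudin family genes 8 had no count in any library. More than 3 counts were found for 20 of them at E11.5 and for 17, 19 and 15 later. Such a tally depends on depth. The E12.5 library had the fewest counts, 25593453, and Rn18s-rs5 took 40.7% of those at E14.5. A level over 1 was found for 13, 8, 9 and 9 genes in the order of the days.

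The 27 other junction proteins, which include scaffolds, polarity proteins and adhesion molecules, mostly changed less than 2-fold, as did Tjp1 and most genes tested. At E12.5, 1 was up-regulated and 1 down-regulated, with a median of 0.01, against 8.64% and 9.11% of all genes tested. The later steps gave 1 up-regulated and 2 down-regulated genes and then 0 called of 26 tested. Of all genes, 3.28% were higher and 1.98% lower at E13.5, and 6.44% and 2.51% at E14.5. Jam2, a junctional adhesion molecule of the immunoglobulin family, had 229, 478, 1256 and 858 counts. It was up-regulated by 1.19 (0.96 to 1.42) at E12.5 and 1.06 (0.90 to 1.21) at E13.5, and was 0.54 (0.41 to 0.67) in the last step. Crb3, a polarity protein, was down-regulated at E12.5 by -1.12 (-1.78 to -0.50), from 74 to 31 counts. Bves, a Popeye domain protein, was lower at E14.5 than at E12.5, at -1.07 (-1.54 to -0.62), with 183 and 52 counts.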

How the data were processed

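Total RNA of pooled XX and XY gonads was sequenced on each day from E11.5 to E14.5, 1 library a day, and groups came from the deposited labels. Per the study's methods, the authors depleted rRNA, made stranded libraries with unique molecular identifiers, aligned to mm10 with STAR, removed duplicates with UMI-tools and counted reads per gene with featureCounts. The deposited counts are these reads per gene, and the authors computed the deposited TPM and the unused RPKM from them and each gene's exon length. Tool versions, the annotation release, the strand setting and the handling of multi-mapping reads are not given in the sources used here.

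For each pair of libraries, genes kept by filterByExpr were scaled by TMM, and log2 fold changes used edgeR's default prior count. A gene was called when its fold change was at least 2. No spread between samples can be estimated with 1 library per group, so no p-value is given. The 95% intervals are exact, from the binomial (Clopper-Pearson) for fold changes and from the Poisson distribution for levels. Both cover counting error only. Levels are RPKM computed from the counts with TMM-scaled library sizes, TMM being taken over the 4 libraries together. Scripts were tested on simulated data.

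All 10 member symbols were matched in the files, and 4 Cldn34 genes and Cldnd1 were matched through RefSeq synonyms. Other tight junction genes are named when called in any comparison with at least 50 counts in their highest library, and the up to 4 marker genes with most counts when a marker list is described. For members with at least 200 counts, the 3 genes with the closest day-to-day changes are named. Grhl2, Spint1, Cdh16, Cdh1, other single markers named for a list's exceptions, Cldn12, Cldn25 and the genes of single cell types named beside a member fall outside these rules, and their values were known when they were picked. One marker in the list counts is not reported here by itself. The members and lists were chosen with earlier results of these data known. Alternatives covered scaling (total counts, DESeq2 size factors, deposited TPM), the low-count filter, the prior count and the call. Promoter sequence came from RefSeq (GRCm38.p6, the mm10 assembly) and gene models from GENCODE M21. R 4.3.3, edgeR 4.0.16, DESeq2 1.42.0, matplotlib 3.10.9, scipy 1.17.1, pandas 2.3.3, numpy 2.4.6 and Python 3.11.15 were used.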

Additional observations from a re-analysis of the deposited data

How the results depend on the processing

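No paired analysis was possible because each time point has 1 library, and for the same reason no replicate could be left out. Counts of genes with at least a 2-fold change are given for the 10 members, the other tight junction genes and all genes. They were 6, 7 and 3412 for E12.5 versus E11.5, 2, 5 and 1009 for E13.5 versus E12.5, 3, 0 and 1700 for E14.5 versus E13.5, and 3, 5 and 2202 for E14.5 versus E12.5. Scaling by total counts gave 7, 26 and 11932 for E14.5 versus E13.5 and 6, 30 and 10751 for E14.5 versus E12.5. The ratio of the deposited TPM gave 7, 32 and 17133, and 7, 33 and 15741. By that ratio the E14.5 versus E13.5 change of Cldn1 was -0.17 and that of Cldn10 -0.033, both reversed, and that of Cldn4 was 0.84. Without a filter on low counts all genes gave 10252, 7493, 8717 and 9153 in the order above, and the other tight junction genes 8 for E13.5 versus E12.5 and 2 for E14.5 versus E13.5. With at least 10 counts in both libraries, the other tight junction genes gave 4, 2, 0 and 2. All genes gave 2255, 516, 1139 and 1481, and the members 2 in each comparison with E14.5. A 4-fold change left 4, 0, 1 and 1 members, 4, 2, 0 and 2 other tight junction genes, and 1247, 151, 438 and 627 of all genes. The edgeR exact test with a preset variation of 0.1 left 6, 1, 2 and 1 members, 7, 3, 0 and 4 other tight junction genes, and 2749, 360, 925 and 1478 of all genes. With 0.4 it left 2, 0, 0 and 0 members, 2, 0, 0 and 0 other tight junction genes, and 286, 1, 31 and 72 of all genes. That variation is assumed, not measured. Requiring the counting interval to lie on 1 side of no change left 2 members for E14.5 versus E12.5, where Cldn3 was lost. DESeq2 size factors and a prior count of 2 kept all 40 member values within their counting intervals. The cause of the other shifts was not tested.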
